A study of Homo sapiens with 60 samples.

Results

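The human mitochondrial chromosome carries 37 of the 60675 genes counted in these HepG2 libraries, and every gene on it, recognised by a symbol that starts with MT-, is described here. They are 13 mRNAs, 2 ribosomal RNAs and 22 tRNAs. HepG2 is a human liver cancer line with hepatocyte features. The study treated it for 24 h with extracts of tonifying herbal medicines and sequenced the RNA.

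Each extract was given at a Low dose of 20 µg/mL, a Medium dose of 100 µg/mL and a High dose of 500 µg/mL. A pair of water extracts of multi-herb formulas were tested, Sibjeondaebo-tang (SDT, 3 libraries a dose) and Palmul-tang (PMT, 2 libraries a dose, numbered 2 and 3). The others were ethanol extracts of single herbs. Poria Cocos (Poria), Atractylodis Rhizoma (Atractylodis), Glycyrrhizae Radix (Glycyrrhiza) and Panax Ginseng (Ginseng) had 3 libraries a dose, and Angelicae Gigantis Radix (Angelica) and Paeoniae Radix (Paeonia) had 1. The reference was 3 libraries of cells given vehicle, 0.1% DMSO by the sample labels and 2% DMSO by the series text. No DMSO percentage is recorded here for the extract libraries, so a match of solvent to vehicle is not shown. All 60 libraries come from the same line and the same time point, and nothing in the labels says whether replicates were separate cultures, so p-values measure the spread between these libraries, which may be technical.

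Mitochondrial DNA is copied into long RNAs from both strands, and these are cut into separate transcripts, mostly at the tRNAs that lie between the genes. The mRNAs encode core subunits of the respiratory chain and of ATP synthase, and the rRNAs build the mitochondrial ribosome. All mRNAs except MT-ND6 come from the heavy-strand RNA, in which the rRNA genes lie first. Liver cells are rich in mitochondria.

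A pair of places on this compact genome bear on how the counts can be read, so their sequences are shown. MT-ATP8 and MT-ATP6, which encode ATP synthase subunits, share 46 bases, given in capitals below, and a read inside them belongs to both genes. MT-RNR2, the large-subunit ribosomal RNA, is followed by a tRNA gene and then by MT-ND1, a complex I subunit, whose ATA start codon is in capitals. All are on the plus strand of GRCh38, from the GENCODE 29 transcripts, at chrM:8503-8572, chrM:8527-8596, chrM:3170-3229 and chrM:3307-3366 in the order printed.
MT-ATP8, last bases: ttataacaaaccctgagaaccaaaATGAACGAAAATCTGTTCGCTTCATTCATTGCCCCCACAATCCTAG
MT-ATP6, first bases: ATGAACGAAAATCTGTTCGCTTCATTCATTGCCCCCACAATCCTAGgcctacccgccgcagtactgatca
MT-RNR2, last bases: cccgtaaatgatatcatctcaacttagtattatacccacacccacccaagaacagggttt
MT-ND1, first bases: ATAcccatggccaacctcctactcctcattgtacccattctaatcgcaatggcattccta

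The MT-ATP8 and MT-ATP6 counts are therefore estimates that divide shared reads. MT-ND4L and MT-ND4, complex I subunits carried on 1 mRNA, share 7 bases in the same way. Nuclear copies of mitochondrial DNA also take reads. MTATP6P1 on chromosome 1 (633696 to 634376) matches MT-ATP6 at 98.53% of bases and held 15.7% of the counts of the pair. MTND2P28 held 3.56% of the counts it shared with MT-ND2, and MTCO1P12 held 0.21% of those shared with MT-CO1. MT-ND6 lies on the minus strand beside MT-ND5, and the strand setting of the counting is not given in the sources used here, so RNA of the opposite strand cannot be told apart from MT-ND6.

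Libraries held between 19057230 and 33233215 counts. The liver genes ALB, AFP, APOA1, APOB, TTR, HNF4A and SERPINA1 were counted in every library. Of 10 marker genes of fibroblasts, endothelium and leukocytes, PTPRC was at 0 throughout and COL1A2 and COL3A1 were at or near 0. Others were counted in every library. Among them LYZ, a lysozyme gene, was at 816 to 2090 CPM (counts scaled to a common library total with TMM factors), CD68, a macrophage lysosome protein, at 50.5 to 161 CPM, and PDGFRB, a receptor of mesenchymal cells, at 2.31 to 17.7 CPM. The remaining 4, COL1A1, PECAM1, CDH5 and VWF, were each at most 2.23 CPM, and COL1A1 was at 0 in some libraries. Of these 10 genes 6 were tested, and between High and Low 3 were called higher (edgeR, adjusted p under 0.05 over all genes tested) and 0 lower in Poria, where 20% of all genes were called higher and 18.4% lower. In Glycyrrhiza 1 was higher and 4 lower (28.4% and 27.8% of all genes), and in Atractylodis 1 higher and 1 lower (6.41% in either direction). In SDT, PMT and Ginseng 0 were called, where 1.04%, 0.516% and 5.79% of all genes were called in either direction. LYZ alone made up most of the summed level of the 10. That sum ran from 1889 to 1990 CPM at Poria High and from 1221 to 1333 CPM at Poria Low. It ran from 979 to 1054 CPM at Glycyrrhiza High and from 1271 to 1372 CPM at Glycyrrhiza Low. The summed level of the 7 liver genes ran from 40374 to 43153 CPM at Glycyrrhiza High and from 54271 to 55270 CPM at Glycyrrhiza Low, and from 62170 to 64007 CPM at Poria High and 53630 to 57202 CPM at Poria Low. The part of these shifts in the results below was not tested.

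All 13 mRNAs and both rRNAs exceeded 10 CPM on average and entered the tests. None of the 22 tRNAs did. The tRNAs, 59 to 75 bases long against reads of 100 bases, had 57 counts in total over all libraries. 7 of them had any count, and the highest mean was 0.014 CPM. Per kilobase of gene, MT-CO3, a complex IV subunit, had the highest mean, 23065 CPM per kb, followed by MT-RNR2 at 21793. MT-CO1 (17398), MT-ND4 (17374) and MT-CO2 (17043) lay close to each other on that scale. MT-ATP8 (4162) and MT-ND5 (4487) were low, and MT-ND6, the light-strand mRNA, was lowest at 1557 CPM per kb. Counts were divided by full gene length. MT-ND4L, 297 bases long, had 5676 CPM per kb against 17374 for MT-ND4 on the same mRNA. MT-ATP8 is 207 bases long, and MT-ATP6, which overlaps it, had 15842. The part of short length in these values was not tested, so they are not read as RNA amounts.

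Between doses of an extract, both rRNAs were higher at Glycyrrhiza High than at Low and no mRNA passed the test. There 28.4% of all genes tested were called higher and 27.8% lower. In Poria both rRNAs and 11 of 13 mRNAs were higher at High, where 20% of all genes were called higher and 18.4% lower. In SDT, PMT, Atractylodis and Ginseng no member passed the High against Low test, and 0.516% to 6.41% of all genes did. Every title, vehicle included, names the same batch (BatchC). The sample codes open with a number that the doses of an extract share, and vehicle's open with C1. What that code marks is not given in the sources used here.

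As a share of all counts, Poria libraries held 17.5%, 15.8% and 17.1% mitochondrial counts at Low, 19.2%, 21.6% and 17.2% at Medium, and 22.3%, 20.1% and 19.7% at High. Every Poria High library was above every Poria Low library, and the Medium libraries spanned both. The means were 20.7% ± 1.38 at High and 16.8% ± 0.895 at Low (SD, n = 3 each), a difference of 3.88 percentage points. Of it, 2.46 points came from mRNAs and 1.43 points from rRNAs. In such a share, more mitochondrial RNA per cell and less nuclear RNA per cell cannot be told apart.

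Glycyrrhiza held 18.4%, 18.0% and 17.8% at High against 15.1%, 17.0% and 16.8% at Low, so the groups did not overlap. The difference was 1.78 points. The rRNA part was 2.15 points higher at High, and the mRNA part was 0.37 points lower (-0.37). In the other replicated extracts the High mean minus the Low mean was 1.24 points for SDT, 1.07 for PMT, 0.28 for Atractylodis and -0.29 for Ginseng, each smaller than the SD pooled over both doses (1.65, 3.45, 1.74 and 1.02 points). PMT High library 2 held 24.8% and library 3 held 18.4%. No p-value is given for these sums.

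**Figure D1:**
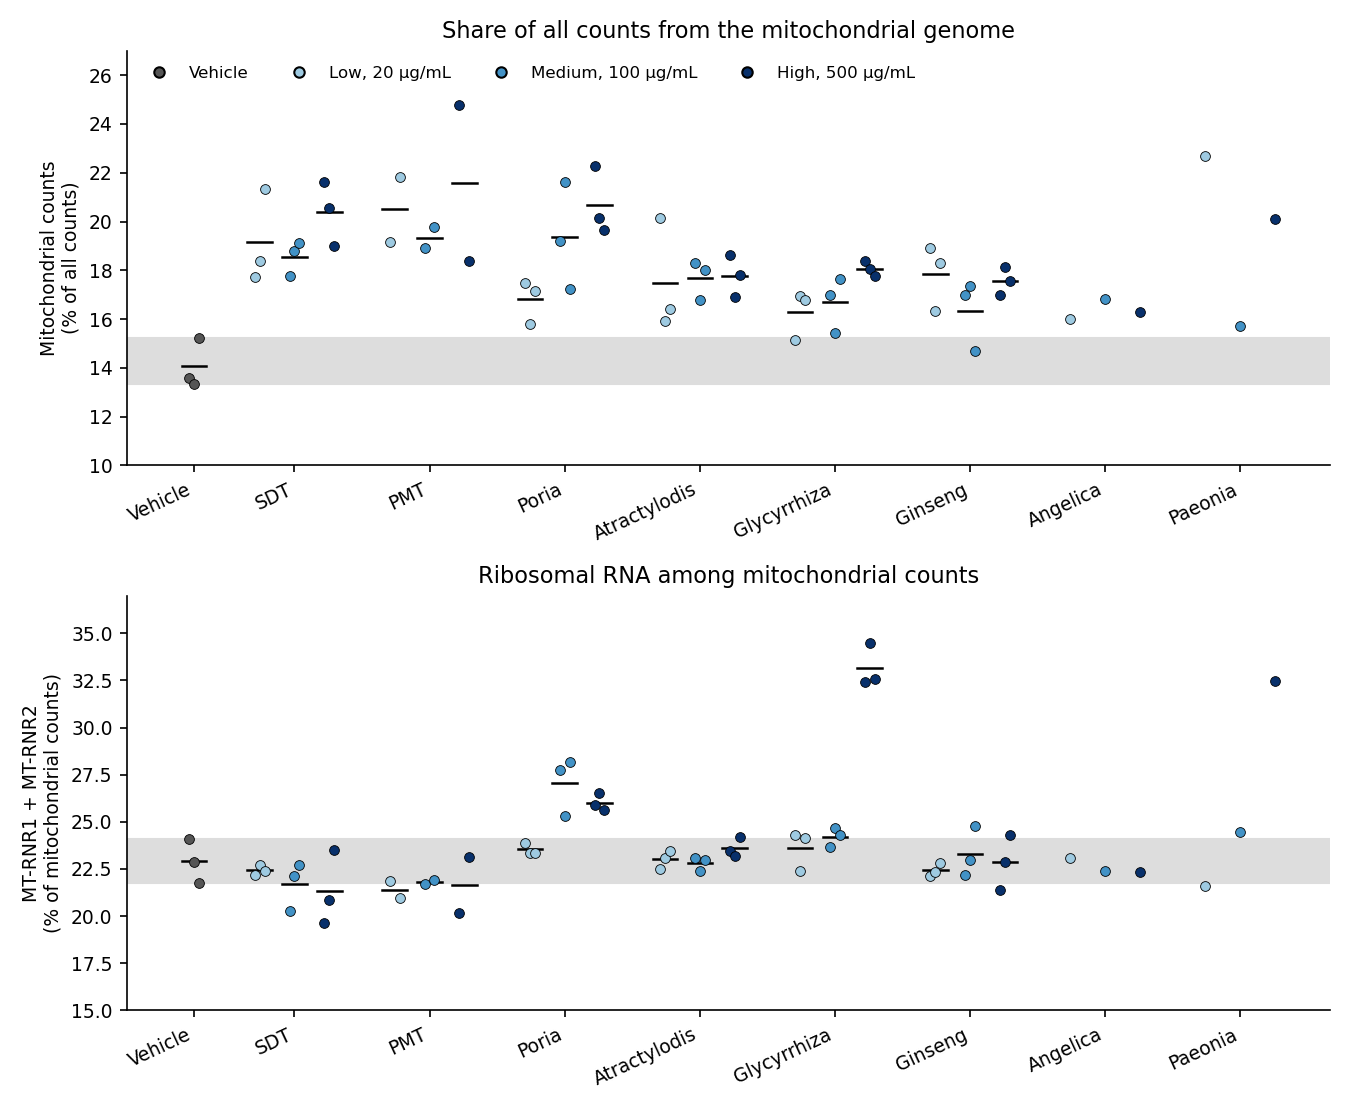
Upper panel: mitochondrial counts as a percentage of all counts, with each point a library, bars the mean of groups with more than 1 library, and the grey band the range of the 3 vehicle libraries. Lower panel: the 2 rRNAs as a percentage of mitochondrial counts. Glycyrrhiza High lies between 32.4% and 34.5% in the lower panel, and the single Paeonia High library is at 32.5%, whereas vehicle lies between 21.7% and 24.1%.

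Among mitochondrial counts, MT-RNR2 made up 27.5% ± 0.960 at Glycyrrhiza High and 18.7% ± 0.675 at Glycyrrhiza Low (SD, n = 3 each). MT-CO1, the catalytic subunit of complex IV, made up 12.5% ± 0.307 at High and 15.6% ± 0.618 at Low. MT-ND1 made up 3.92% ± 0.281 at High and 4.96% ± 0.762 at Low. A larger share of one transcript lowers the others by construction, so levels are given next.

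MT-RNR2 stood at 27992, 30045 and 31390 CPM in Glycyrrhiza Low libraries, at 31042, 28040 and 33148 CPM in Medium, and at 47363, 49635 and 45918 CPM in High. High libraries were all above the others, and Medium and Low overlapped. The log2 change, High over Low, was 0.67 (SE 0.10), with an adjusted p of 6.94e-08 by edgeR's quasi-likelihood test with Benjamini-Hochberg adjustment over the 16284 genes tested. The call passed in each of the 6 fits that left out a library. MT-RNR1, the small-subunit rRNA, had 10085, 10257 and 8952 CPM at High against 7495, 7451 and 8438 CPM at Low, without overlap. Its log2 change was 0.32 (SE 0.11) with an edgeR adjusted p of 0.0147, and it passed in 3 of the 6 fits that left out a library. Without Glycyrrhiza Low library 1, Glycyrrhiza High library 2 or Glycyrrhiza Low library 2 its adjusted p was 0.0541, 0.0577 and 0.0527. These were the 2 members called, both higher, of 15 tested, where 28.4% of all genes tested were called higher and 27.8% lower.

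None of the 13 mRNAs passed in Glycyrrhiza. With only the 6 libraries compared in the fit, 3 members were called higher and 3 lower (62.3% of all genes called), and with no filter on low counts 3 higher and 4 lower (26.9%). MT-ND1 had 7408, 6893 and 6105 CPM at High against 6229, 9672 and 7997 CPM at Low, and the groups overlapped. MT-CO1 had 22720, 21630 and 20574 CPM at High against 23777, 25761 and 24857 CPM at Low, without overlap, with a log2 difference of -0.20 and an edgeR adjusted p of 0.0605. MT-CO3 differed by -0.21 with an edgeR adjusted p of 0.0533. MT-ND6 differed by 0.12 (SE 0.24) with an edgeR adjusted p of 0.697. The median log2 difference of the 15 members was -0.01, beside 0.01 for all genes tested.

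In Poria, 13 of 15 members were called higher at High than at Low and 0 lower, where 20% of all genes tested were called higher and 18.4% lower. Their median log2 change was 0.43, beside -0.0036 for all genes tested. MT-RNR1 changed most, with 15342, 12426 and 11921 CPM at High against 9090, 7789 and 8733 CPM at Low, a log2 change of 0.63 (SE 0.11) and an edgeR adjusted p of 1.56e-05. MT-RNR2 had 48798, 45603 and 42258 CPM at High against 31896, 27809 and 30604 CPM at Low, a log2 change of 0.60 (SE 0.10) and an edgeR adjusted p of 2.02e-06. In neither rRNA did the groups overlap. At Medium, MT-RNR1 had 15087, 13823 and 11426 CPM, within the High range or beside it, and MT-RNR2 had 39411, 44861 and 37299 CPM.

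The Poria mRNAs called had log2 changes between 0.31 and 0.62. The smallest belonged to MT-CYB, the cytochrome b of complex III, which had 12919, 10224 and 11158 CPM at High against 10315, 8736 and 8571 CPM at Low. The groups overlapped by 1 library, and the log2 change of 0.31 (SE 0.12) had an edgeR adjusted p of 0.0336. The 2 members not called were MT-ND6 (log2 difference 0.40, SE 0.24, edgeR adjusted p of 0.201) and MT-ND3 (0.24, SE 0.18, edgeR adjusted p of 0.316). MT-ND6 had 1198, 774 and 647 CPM at High against 803, 525 and 657 CPM at Low, with the groups overlapping.

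How many Poria members passed depended on single libraries. Without Poria High library 1, 4 members were called, and without Poria Low library 2, 6 were. MT-CO1, MT-CO3, MT-RNR1 and MT-RNR2 passed in all 6 fits that left out a library. With library totals alone in place of TMM scaling, 7 were called. The share of all genes called in these alternative fits is not given here, so the counts cannot be set against it.

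**Figure D2:**
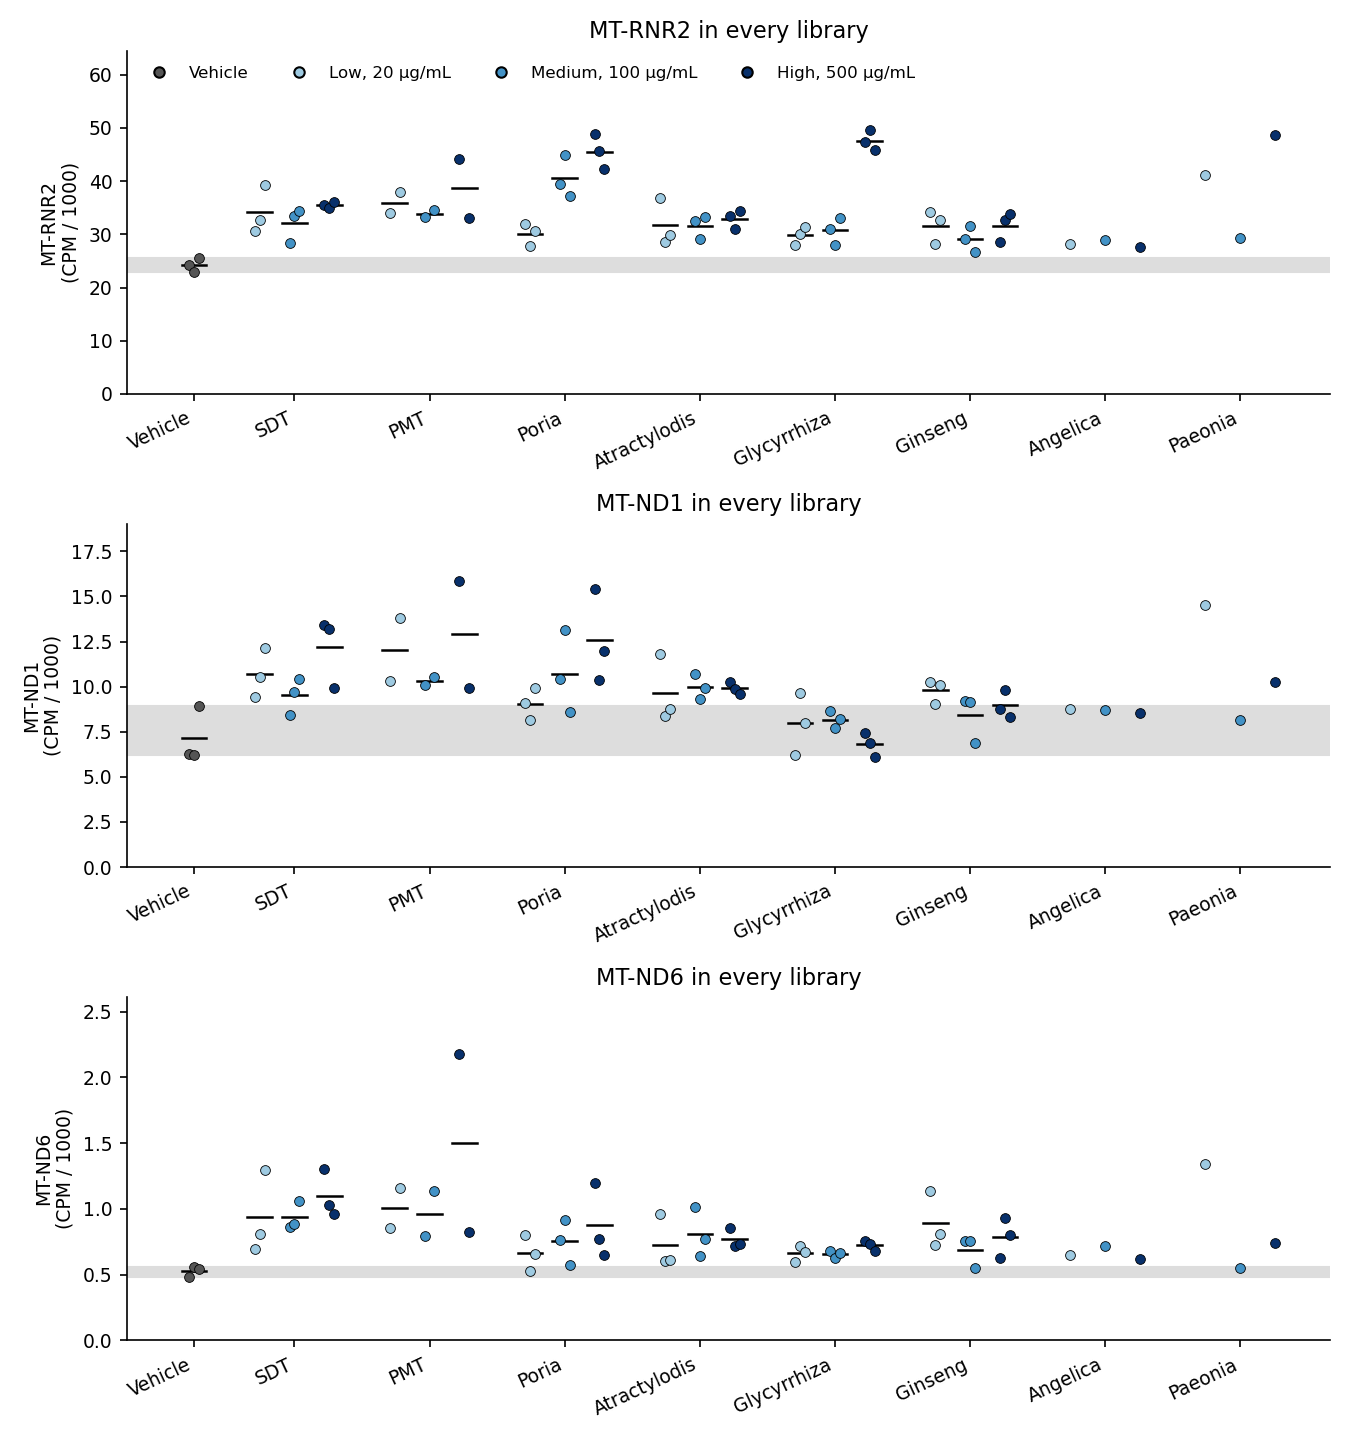
CPM of MT-RNR2, MT-ND1 and MT-ND6 in every library, divided by 1000, with points, bars and grey band as in the plot of shares. MT-RNR2 separates Glycyrrhiza High and Poria High from their Low doses, MT-ND1 overlaps between Glycyrrhiza High and Low, and MT-ND6 reaches its highest value, 2174 CPM, in 1 PMT High library.

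To set rRNA against mRNA directly, the fit was repeated with the summed counts of the 13 mRNAs as library size, an alternative chosen after seeing the data. A value then says how a transcript changed relative to mitochondrial mRNA. In Glycyrrhiza, High over Low, MT-RNR2 changed by 0.75 on the log2 scale (SE 0.07, edgeR adjusted p of 3.10e-12), MT-RNR1 by 0.40 (SE 0.11, adjusted p of 0.00362) and MT-ND4, a complex I mRNA, by 0.22 (SE 0.06, adjusted p of 0.00564). In Poria, MT-RNR2 alone was called, by 0.19 (SE 0.07, edgeR adjusted p of 0.0297). On this scale 35% of all genes were called in Glycyrrhiza and 52.5% in Poria.

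In SDT, PMT, Atractylodis and Ginseng, edgeR called 0 of 15 members between High and Low and DESeq2 called 0. The share of all genes that DESeq2 called is not given here, so its count cannot be set against it. With no filter on low counts, edgeR called 8 in SDT (1.23% of all genes in that fit), 4 in PMT (0.691%) and 2 in Atractylodis (2.68%), all higher at High, and 1 in Ginseng (2.4%), lower at High. That fit gave far smaller p-values for like changes. For MT-RNR1 in Glycyrrhiza its log2 change was 0.32 with an edgeR adjusted p of 5.02e-12, against 0.0147 with the filter, and the cause was not tested. At an unadjusted p under 0.05, edgeR had 1 member in SDT and 0 in the other extracts. The share of all genes at that unadjusted threshold is not given here. At an adjusted p under 0.05, edgeR called 1.04% of all genes tested in SDT, 0.516% in PMT, 6.41% in Atractylodis and 5.79% in Ginseng. MT-RNR2 differed by 0.06 in SDT, 0.105 in PMT, 0.05 in Atractylodis and 0.01 in Ginseng on the log2 scale, with edgeR adjusted p-values of 0.882, 0.861, 0.852 and 0.993. MT-ND6 differed by 0.24 in SDT, 0.58 in PMT, 0.08 in Atractylodis and -0.18 in Ginseng, with edgeR adjusted p-values of 0.792, 0.573, 0.910 and 0.797. In PMT it had 2174 and 828 CPM at High against 855 and 1157 CPM at Low, so its value rests on PMT High library 2, without which the log2 difference was -0.28.

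**Figure D3:**
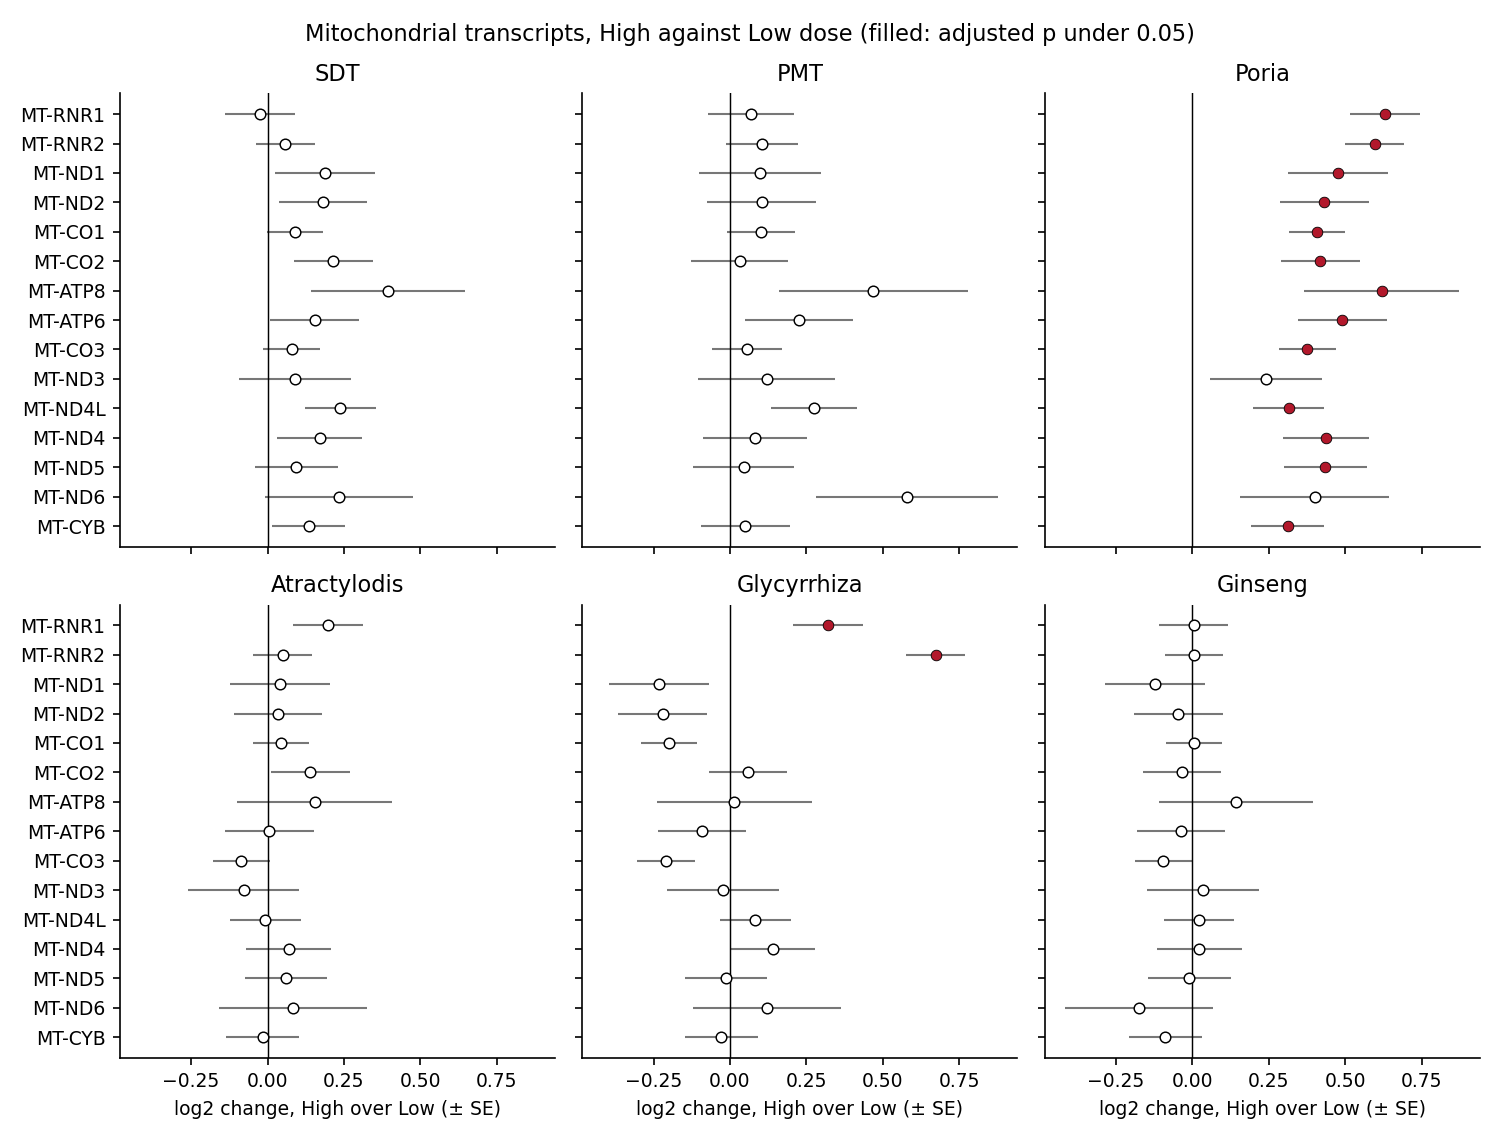
Log2 change of each tested member, High over Low, by extract, with bars of 1 SE, filled where the edgeR adjusted p is under 0.05. Poria has 13 filled points, all to the right of 0, Glycyrrhiza has the 2 rRNAs, and the other 4 extracts have none.

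Dose responses were also set against each other between extracts whose sample codes open with the same number. The High over Low change was larger in Poria than in Atractylodis for MT-RNR2 by 0.55 on the log2 scale (SE 0.14, edgeR adjusted p of 0.00253), for MT-CO3 by 0.46 (SE 0.13, adjusted p of 0.00920) and for MT-CO1 by 0.36 (SE 0.13, adjusted p of 0.0411). These were 3 of 15 members, where 10.3% of all genes were called in that direction. MT-RNR2 and MT-CO3 passed in each of the 12 fits that left out a library, and MT-CO1 in 4 of them. Without Atractylodis Low library 2, 5 members were called, and the share of all genes called in that fit is not given here. The High over Low change was larger in Glycyrrhiza than in Ginseng for MT-RNR2 by 0.67 (SE 0.14, edgeR adjusted p of 6.71e-05). This was 1 of 15 members, where 22.3% of all genes were called in that direction. Between SDT and PMT, edgeR called 0 members and 0% of all genes. DESeq2 called 0 members there, and 0 members had an unadjusted edgeR p under 0.05. For these counts the share of all genes is not given here. With no filter on low counts 1 member was called there, with the lower change in SDT, where 0.246% of all genes were called.

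At High, MT-RNR2 was higher in Glycyrrhiza than in Ginseng by 0.59 on the log2 scale (SE 0.10), where 28.7% of all genes were called higher. MT-ND1, MT-ND2, MT-CO1 and MT-CO3 were lower in Glycyrrhiza, by values between -0.42 and -0.24, where 28.2% of all genes were called lower. In Poria High against Atractylodis High, 4 members were called, all higher in Poria (MT-RNR1, MT-RNR2, MT-CO1 and MT-CO3), where 16.2% of all genes were called higher. Without Ginseng High library 1, Glycyrrhiza against Ginseng had 1 member higher and 2 lower. The share of all genes called in that left-out fit is not given here, so the count cannot be set against it. For SDT High against PMT High, edgeR called 0 of 16284 genes (0%). DESeq2 called 0 members there, and 0 members had an unadjusted edgeR p under 0.05, with the share of all genes for these counts not given here. With no filter on low counts 2 members were called, lower in SDT, where 0.37% of all genes were called.

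Ratios of counts were tested over the libraries of an extract with a two-sided exact permutation test, for 10 ratios in 6 extracts. The statistic was the mean log2 ratio at High minus that at Low. Low, Medium and High labels were permuted over all libraries of the extract, so Medium values bear on each p-value. None of 60 passed after Benjamini-Hochberg adjustment, and 3 had an unadjusted p under 0.05. The smallest p that 9 libraries allow is 0.00119, and that for the 6 PMT libraries is 0.0222. Over 60 tests a single ratio at 0.00119 would have an adjusted p of 0.0714, and 2 ratios at that p, or 27 at 0.0222, would be needed to pass, so the adjusted result says little about these ratios. The ratio of MT-ND1 to MT-RNR2 was 0.156, 0.139 and 0.133 at Glycyrrhiza High, against 0.223, 0.322 and 0.255 at Low. High libraries were all below Low, the ratio at High was 0.541 of that at Low, and the exact permutation p was 0.0131 (adjusted 0.393). MT-CO2 to MT-CO1, both complex IV mRNAs, was 0.445, 0.446 and 0.500 at Glycyrrhiza High and 0.375, 0.390 and 0.394 at Low, a log2 change of 0.26 with an exact permutation p of 0.00357 (adjusted 0.214). In SDT the same ratio had an exact permutation p of 0.0202 (adjusted 0.405).

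The ratio of MT-RNR2 to MT-RNR1 was 4.70, 4.84 and 5.13 at Glycyrrhiza High and 3.73, 4.03 and 3.72 at Low, with no overlap. At Glycyrrhiza Medium it ran from 3.34 to 3.54, below Low. The exact permutation p, with Medium libraries among those permuted, was 0.0571 (adjusted 0.783). High minus Low on the log2 scale was 0.35 there, 0.09 in SDT, 0.02 in PMT, -0.03 in Poria, -0.14 in Atractylodis and 0.001 in Ginseng. The ratio of MT-ND6 to MT-CYB, light strand to heavy strand, changed by 0.14 in SDT, 0.40 in PMT, 0.06 in Poria, 0.12 in Atractylodis, 0.15 in Glycyrrhiza and -0.09 in Ginseng, with exact permutation p-values between 0.0881 and 0.725.

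**Figure D4:**
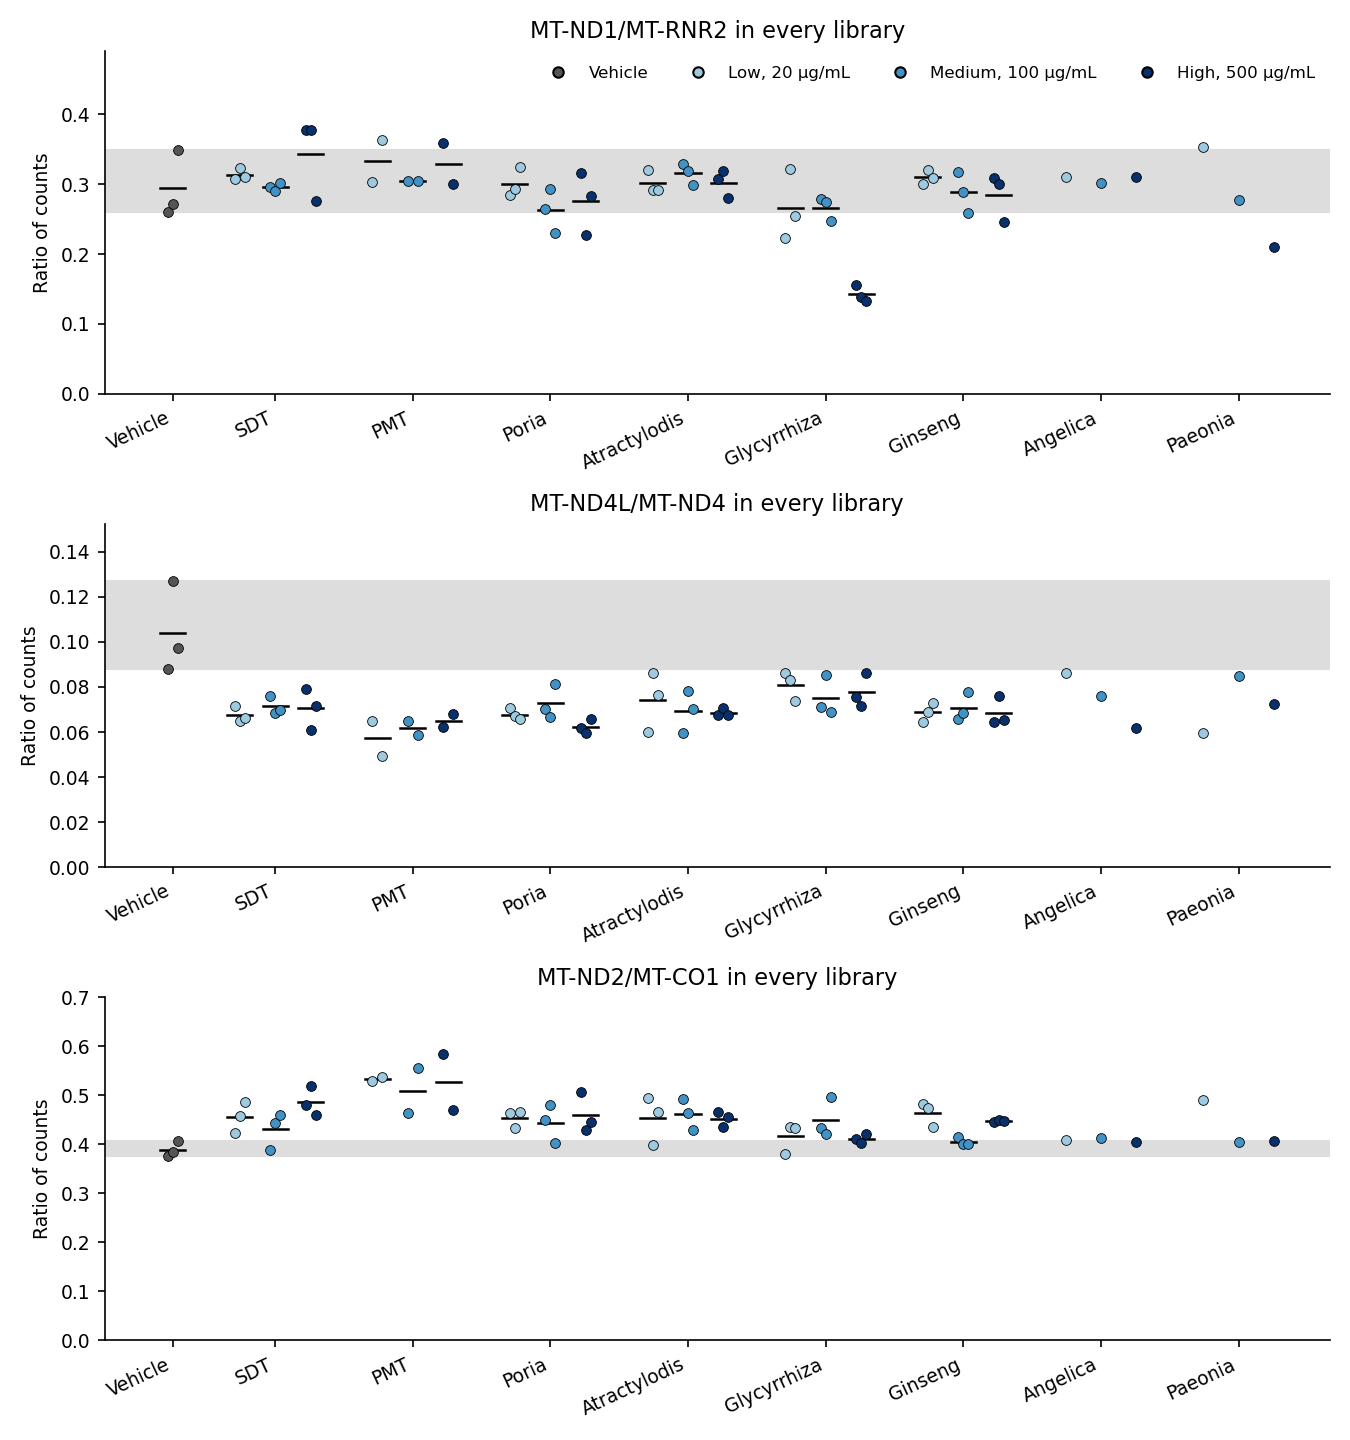
Ratios of counts in every library, with points, bars and grey band as in the plot of shares. MT-ND1/MT-RNR2 is lowest in the Glycyrrhiza High libraries (0.133 to 0.156), MT-ND4L/MT-ND4 is below the vehicle range in all 57 treated libraries, and MT-ND2/MT-CO1 is above it in 47 of 57.

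Angelica and Paeonia had 1 library a dose, so their differences have no replicate check. Paeonia held 22.7% mitochondrial counts at Low, 15.7% at Medium and 20.1% at High. The 95% Wilson interval at High, 20.07% to 20.10%, covers counting error only. Paeonia High had 19587 CPM of MT-RNR1, the highest of the 60 libraries, and a MT-RNR2 to MT-RNR1 ratio of 2.49, the lowest. Paeonia Low had 11018 CPM of MT-RNR1 and a ratio of 3.73. The summed level of the 10 markers of other cells, most of it LYZ, was 1436 CPM at Paeonia Low and 1391 CPM at Medium. At Paeonia High this sum was 2197 CPM, the highest of the 60 libraries. Its part in the MT-RNR1 level was not tested. Angelica held 16.0% at Low, 16.8% at Medium and 16.3% at High.

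Against vehicle, 4 to 15 of 15 members were called higher in each of the 18 comparisons of the 6 replicated extracts, and 0 lower. With no filter on low counts 1 was lower in Poria Low (8.51% of all genes called in either direction) and 1 in Ginseng Medium (13.1%). Angelica and Paeonia, with 1 library a dose, were not tested. Of 19 treated libraries at each dose, 18 at Low, 18 at Medium and 19 at High held a larger mitochondrial share than the highest vehicle library, in which it was 15.2%. The same 3 vehicle libraries enter every comparison, and treatment and sample code differ together between every extract and vehicle, so they cannot be told apart. A match of solvent between extracts and vehicle is not shown here either.

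At Low, the members called higher by edgeR were 13 of 15 in SDT (18.3% of all genes called higher), 14 in PMT (16.1%), 6 in Poria (9.9%), 10 in Atractylodis (13.7%), 5 in Glycyrrhiza (15.2%) and 11 in Ginseng (16.8%). At Medium they were 13 in SDT (18.2%), 12 in PMT (15.4%), 12 in Poria (19.7%), 9 in Atractylodis (14.7%), 7 in Glycyrrhiza (17.9%) and 7 in Ginseng (15.3%). At High they were 15 in SDT (17.8%), 15 in PMT (15.3%), 14 in Poria (26.3%), 10 in Atractylodis (17.3%), 4 in Glycyrrhiza (31.1%) and 10 in Ginseng (18.5%). Several of these counts rest on single libraries, and the share of all genes called in the left-out fits is not given here. PMT Low had 9 without its library 3, PMT Medium 7 without its library 3, and PMT High 7 without its library 2. Poria Low had 2 without its library 1 and 1 without vehicle library 2, and Poria Medium had 7 without its library 2. Atractylodis Low had 4 without its library 1 and 6 without vehicle library 1 or 2. Glycyrrhiza Low had 8, 2 and 2 without its library 1, 2 and 3, 3 without vehicle library 1 and 1 without vehicle library 2. Glycyrrhiza Medium had 2 without its library 3 and 4 without vehicle library 2. Ginseng Medium had 2 without its library 1, vehicle library 1 or vehicle library 2, and 1 without its library 2.

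In Glycyrrhiza High against vehicle the 4 members called were MT-RNR2 (log2 change 0.98), MT-RNR1 (0.73), MT-ND4 (0.48) and MT-ND5 (0.37), and MT-ND1 differed by -0.07 with an edgeR adjusted p of 0.746. In SDT High the values were 0.56 for MT-RNR2 and 0.94 for MT-ND4. Over the 18 comparisons, which share vehicle, the log2 values of MT-ND4 ran from 0.34 to 1.08 and those of MT-ND2 from 0.18 to 1.10, while those of MT-ND4L ran from -0.21 to 0.40.

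MT-ND4L and MT-ND4 sit on the same mRNA, and their count ratio ran from 0.0493 to 0.0864 in the 57 treated libraries, with a median of 0.0691. It was 0.0881, 0.127 and 0.0971 in vehicle, so that no treated library reached the vehicle range. MT-ND2 to MT-CO1 ran from 0.381 to 0.583 in treated libraries and from 0.376 to 0.408 in vehicle, with 47 of 57 treated libraries above. MTATP6P1 was split in the same way, holding 13.3% to 18.6% of the MT-ATP6 pair in treated libraries and 11.5% to 13.2% in vehicle. The summed level of 7 RNAs without a poly(A) tail, of 8 listed, ran from 2.79 to 22.9 CPM in treated libraries (both ends in Glycyrrhiza, at High and Medium) and from 27.5 to 49.5 CPM in vehicle. RNU4-2 was at 0 throughout. RN7SL1, an RNA of the signal recognition particle, had a median of 3.19 CPM over all 60 libraries and 10.4 to 18.4 CPM in vehicle. What part library preparation had in these ratios, or in the rRNA differences between doses of Glycyrrhiza and Poria, was not tested.

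Nuclear genes that act on mitochondrial RNA were counted from lists chosen by function. Of 18 transcription and replication genes, Poria High against Low had 6 higher and 4 lower, Glycyrrhiza 3 higher and 7 lower, and Atractylodis and Ginseng 1 higher each. In Poria, TWNK, the mitochondrial DNA helicase, changed by 0.32, TFB1M, a methyltransferase of the small-subunit rRNA, by -0.31, and TOP1MT, the mitochondrial topoisomerase, by 0.30. Of 24 RNA processing and stability genes, 12 were higher and 4 lower in Poria, 8 higher in Atractylodis, 5 higher and 9 lower in Glycyrrhiza, and 4 higher and 1 lower in Ginseng. In Poria, REXO2, an oligoribonuclease, changed by 0.61, FASTKD5, a factor in processing of mitochondrial mRNAs, by 0.35, and PDE12, which removes poly(A) from mitochondrial RNA, by 0.32. The median of that list in Poria was 0.16, beside -0.0036 for all genes. Of all genes tested, 20% were called higher and 18.4% lower in Poria, 28.4% higher and 27.8% lower in Glycyrrhiza, 3.39% higher in Atractylodis and 2.92% higher in Ginseng.

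Of 9 biogenesis regulators, 4 were higher in Poria, 4 higher and 5 lower in Glycyrrhiza, and 2 higher in Atractylodis. In Poria, PPARGC1B changed by 0.68, PPRC1 by 0.46 and PPARGC1A by 0.45, all coactivators of the PGC-1 family. Of 71 nuclear genes for respiratory chain and ATP synthase subunits, 2 were higher and 12 lower in Poria, and 1 was higher and 25 lower in Glycyrrhiza. Of all genes, 20% were higher and 18.4% lower in Poria, and 28.4% were higher and 27.8% lower in Glycyrrhiza. The share of subunit genes called lower was near that of all genes in Poria and above it in Glycyrrhiza. The share of subunit genes called higher was below that of all genes in both extracts. Against vehicle, 28 to 56 of the 71 were lower and 0 to 4 higher over the 18 comparisons, where 9.32% to 30.2% of all genes were called lower. The Poria genes with the largest changes were NDUFB1 (-0.51), NDUFA2 (-0.41) and NDUFB11 (-0.28), accessory subunits of complex I. SDT and PMT had 0 called in these lists by edgeR, apart from 1 respiratory chain gene higher in SDT. Of all genes tested, 1.04% were called in SDT and 0.516% in PMT, so these low counts are not read as a result about the lists.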

How the data were processed

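Total RNA was made into directional libraries and read as 100-base pairs, per the labels' protocols. The authors deposited expected counts per gene, which are estimated counts and need not be whole. FastQC 0.11.9, Trim Galore 0.6.5, STAR 2.7.3a, RSEM 1.3.3 and GRCh38 are named in the submitters' processing notes. Which gene annotation the authors counted on, and with what strand setting, is not given in the sources used here. The table held 60675 genes and 270 columns, and 210 columns of other samples were not used. Gene positions came from GENCODE 29. The members and lists were chosen with earlier results of these data known.

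Counts were rounded, scaled by TMM and filtered with filterByExpr, leaving 16284 genes. The 54 libraries of the 19 groups with 2 or 3 libraries entered 1 fit with a coefficient per group in edgeR 4.0.16 (R 4.3.3), tested by quasi-likelihood. Calls had an adjusted p under 0.05 over all genes tested. Libraries of groups with 1 library were described only. Full statistics were given to the called members with the largest and smallest change, MT-ND6 and MT-RNR2. For the nuclear lists the 3 called genes with the largest change in the extract with most members called were named. Shares used all counts as total. A Wilson 95% interval was taken for single libraries. No pair of replicate libraries held identical values. The fit was also run on counts simulated from its own spread estimates for the filtered genes. That run does not bear on the fit with no count filter, and no result is drawn from it here. Alternatives were DESeq2 1.42.0 and its size factors, library totals alone, nuclear genes alone, no count filter, only the groups compared, a replicate block, and each library left out.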

Additional observations from a re-analysis of the deposited data

Results flagged for a closer look

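The High over Low change of MT-RNR2 differed between Glycyrrhiza and Ginseng by 0.67 on the log2 scale. It was picked out because the difference of the 2 changes was itself tested and passed in edgeR (adjusted p of 6.71e-05). In that direction 1 of 15 members passed, where 22.3% of all genes did. MT-RNR2 passed in each of the 12 fits that left out a library of these groups.

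Between Poria and Atractylodis the change differed by 0.55 for MT-RNR2, by 0.46 for MT-CO3 and by 0.36 for MT-CO1 on the log2 scale, each past the same edgeR test of the difference (adjusted p of 0.00253, 0.00920 and 0.0411). In that direction 3 of 15 members passed, where 10.3% of all genes did. MT-RNR2 and MT-CO3 passed in each of the 12 fits that left out a library, and MT-CO1 in 4 of them, with an adjusted p of up to 0.168. Under the other settings MT-CO1 passed in 6 of 7 fits.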

How the results depend on the processing

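Shares, ratios, single members and counts of called members were recomputed one choice at a time. Of 393 values under other settings, 352 were scored as unchanged, and of 463 values with a library left out, 408 were. A count of called members was scored so if it equalled the main count or was within 1.5 times of it. Other values were scored so if they kept their direction and side of the threshold or stayed within the spread. DESeq2, its size factors and scaling on nuclear genes alone moved no count of called members by over 1.5 times. Unrounded counts and added nuclear copies, run for single members and shares, changed no call or direction. Where a value moved, the cause was not tested, apart from what the setting itself removes.

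The main fit did not pair libraries by replicate number. Between High and Low, same-numbered libraries had correlations between -0.085 and 0.137, with 2 of 17 over 0.1. With a replicate block, Poria High against Low had 13 members called and Glycyrrhiza 2, and the block changed no call count by over 1.5 times. The share of all genes called with the block is not given here.

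With no filter on low counts, 8 members were called between High and Low in SDT, where 1.23% of all genes were called. They were 4 in PMT (0.691%), 2 in Atractylodis (2.68%), 7 in Glycyrrhiza (26.9%) and 1 in Ginseng (2.4%). Against vehicle they were 15 in Poria Low (8.51%) and 14 in Ginseng Medium (13.1%). They were also 14 in Atractylodis Medium, 13 in Glycyrrhiza Low, 12 in Glycyrrhiza Medium and 12 in Glycyrrhiza High. They were 2 in SDT High against PMT High (0.37%), 14 in Poria High against Atractylodis High and 11 in Glycyrrhiza High against Ginseng High. In the differences of dose responses they were 1 for SDT and PMT (0.246%), 15 for Poria and Atractylodis and 5 for Glycyrrhiza and Ginseng. With only the groups compared in the fit, 6 were called in Glycyrrhiza High against Low (62.3%). Against vehicle they were 10 in Glycyrrhiza Low and 8 in Glycyrrhiza High. They were 10 in Poria High against Atractylodis High and 10 in Glycyrrhiza High against Ginseng High. In the difference of Glycyrrhiza and Ginseng 2 were called, and MT-RNR2 in Ginseng was -0.0003. With library totals alone, 7 were called in Poria and 4 in Glycyrrhiza, High against Low, and 2 in the difference of Glycyrrhiza and Ginseng. Scaled on the 13 mRNAs, a setting chosen after seeing the data, 1 was called in Poria (52.5%). MT-CYB was -0.10 and MT-ND6 -0.025 (log2) there, and MT-RNR2 was -0.072 in SDT. Where no share of all genes stands beside a count here, the count is not read as a result about the members.

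From mRNAs alone, the High minus Low share was 2.46 points in Poria and -0.37 in Glycyrrhiza, and per nuclear counts it was 5.90 and 2.58 points.

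With a library left out, the members called ran from 4 to 12 in Poria and 1 to 2 in Glycyrrhiza, High against Low. Against vehicle they ran from 9 to 14 in PMT Low, 7 to 12 in PMT Medium, 7 to 15 in PMT High, 1 to 7 in Poria Low, 7 to 13 in Poria Medium, 4 to 10 in Atractylodis Low, 1 to 8 in Glycyrrhiza Low, 2 to 8 in Glycyrrhiza Medium and 1 to 8 in Ginseng Medium. They ran from 2 to 5 in the difference of Poria and Atractylodis and from 3 to 5 in Glycyrrhiza High against Ginseng High. The share of all genes called in these left-out fits is not given here. Uncalled log2 values changed sign. MT-RNR2 ran from -0.016 to 0.17 in SDT, -0.11 to 0.30 in PMT, -0.020 to 0.17 in Atractylodis and -0.073 to 0.069 in Ginseng. MT-ND6 ran from -0.28 to 1.11 in PMT, -0.032 to 0.34 in Atractylodis and -0.32 to 0.031 in Ginseng. MT-RNR2/MT-RNR1 ran from -0.11 to 0.15 in PMT, -0.071 to 0.032 in Poria and -0.058 to 0.063 in Ginseng. MT-ND6/MT-CYB ran from -0.029 to 0.83 in PMT, -0.10 to 0.24 in Poria and -0.21 to 0.054 in Ginseng. Where PMT is left with 1 library at a dose, that library is assumed to vary like the other groups. Groups hold 2 or 3 libraries, vehicle 3, and the effect of depth on these counts was not tested.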
